A study of Mus musculus with 12 samples.

Results

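The 10 genes described here encode transcription factors of the neural crest and of the mesenchyme it forms: Sox10, Tfap2a, Tfap2b, Pax3, Msx1, Msx2, Twist1, Twist2, Prrx1 and Prrx2. They were chosen by name, and each was found as 1 row among the 54352 gene symbols of the count table. The libraries came from primary adventitial fibroblasts, matrix-forming cells from the outer layer of the aorta, which grew out of tissue pieces of wild-type C57Bl/6 mice. Cells of the descending aorta or of the ascending aorta were kept as control (TGFβ at 0 ng/mL) or treated with TGFβ at 10 ng/mL, in both cases for 48 h, with 3 bulk RNA libraries in each of the 4 groups. The labels give an age of 14 weeks for every group and no genetic change in any of them. The ascending tissue included the aortic root, and the descending tissue reached down to the renal arteries. The study's methods describe male mice and cultures in serum, and its text gives different ages and passage numbers in different places. Whether cultures were pooled, or whether cultures of the same number shared animals, is not stated, so p-values measure the spread between these cultures, which may be technical.

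The neural crest is a transient population of the vertebrate embryo that leaves the dorsal neural tube, migrates, and forms peripheral neurons and glia, melanocytes and, in the head and the outflow tract of the heart, mesenchyme that contributes to the wall of the ascending aorta and arch. Its regulators act in layers. TFAP2A, MSX1, MSX2 and PAX3 help to specify the neural plate border and the early crest. SOX10 marks migrating crest and stays on in glia and melanocytes. TWIST1, TWIST2, PRRX1 and PRRX2 belong to mesenchyme, in the crest and also in mesoderm of other origin, and are common in fibroblasts. The wall of the descending aorta is mostly of mesodermal origin.

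Fibroblast markers were abundant in every library, and smooth muscle markers were present as well. All 10 fibroblast markers, Col1a1 and Pdgfra among them, were detected in every group, and their summed level lay between 19322 and 30300 normalized CPM (CPM, a count set against the sum of all counts of that library, scaled with edgeR's TMM factors). The 7 smooth muscle markers, mostly Acta2, summed to between 1582 and 8382 normalized CPM. Library totals ran from 16250126 to 23892943 counts. Descending control replicate 3 stood apart. It had counts on 13031 genes, against 19337 to 20931 in the other 11 libraries, and 11.02% of its counts were mitochondrial, against 0.703% to 1.03%. Msx1, Msx2 and Tfap2a had 0 counts in that library alone, so results that use it are given with and without it, and its part in each result was not tested. A count of 3 was taken as the floor of a library, between 0.117 and 0.207 normalized CPM, which covers counting error only. In bulk RNA, fewer cells of a type and less RNA per cell cannot be told apart. All 8 genes of the list of TGFβ targets that were in the table passed the test as higher with TGFβ in ascending fibroblasts, where 28.2% of all genes tested did. In descending fibroblasts 6 of 8 did, against 3.59% of genes, and 8 of 8 without descending control replicate 3, against 26.6%.

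The sequence before the start site is shown for 5 of the members that either moved together with TGFβ (Twist1, Twist2, Prrx1) or differed between the sites (Tfap2b, Msx1). RefSeq promoter windows of GRCm38.p6 were found for 8 of the 10 members. Each run is the 250 bases before the RefSeq start, 5′ to 3′ on the gene's strand, except that the run of Prrx1 ends where an annotated Prrx1 exon begins. The windows of Msx2 and Prrx2 lie within exons of these genes and are not shown. Tfap2a also differed between the sites with TGFβ, and its windows are not shown either. Capitals mark the letters of 4 motifs, searched on both strands: CAGAC (the core of SMAD binding sites), TAATTA (a homeodomain core, as MSX and PRRX proteins bind), GCCNNNGGC (AP-2, the family of TFAP2A and TFAP2B) and CANNTG (the E-box, bound by TWIST dimers). A match is a description of the letters, not of a bound site.
Twist1, plus strand, chr12:33957421-33957670: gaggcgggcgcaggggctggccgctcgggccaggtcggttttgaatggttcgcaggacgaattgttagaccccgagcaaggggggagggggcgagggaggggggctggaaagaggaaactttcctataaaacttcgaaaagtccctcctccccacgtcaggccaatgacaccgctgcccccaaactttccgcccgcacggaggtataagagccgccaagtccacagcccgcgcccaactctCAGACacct
Twist2, plus strand, chr1:91801211-91801460: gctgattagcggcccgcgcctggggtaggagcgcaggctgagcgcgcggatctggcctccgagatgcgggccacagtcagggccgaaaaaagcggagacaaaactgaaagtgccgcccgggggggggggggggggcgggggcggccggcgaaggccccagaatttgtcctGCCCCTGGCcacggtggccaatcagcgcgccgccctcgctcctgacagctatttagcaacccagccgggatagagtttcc
Prrx1, minus strand, chr1:163313711-163313900: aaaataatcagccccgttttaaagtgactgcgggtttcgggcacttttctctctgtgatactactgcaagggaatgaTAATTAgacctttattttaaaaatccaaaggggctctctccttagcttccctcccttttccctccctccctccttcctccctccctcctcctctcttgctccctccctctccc
Tfap2b, plus strand, chr1:19211804-19212053: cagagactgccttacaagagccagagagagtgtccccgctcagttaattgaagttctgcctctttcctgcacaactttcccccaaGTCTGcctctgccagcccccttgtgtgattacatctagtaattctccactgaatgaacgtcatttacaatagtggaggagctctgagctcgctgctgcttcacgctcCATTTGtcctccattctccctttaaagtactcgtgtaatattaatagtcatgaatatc
Msx1, minus strand, chr5:37824586-37824835: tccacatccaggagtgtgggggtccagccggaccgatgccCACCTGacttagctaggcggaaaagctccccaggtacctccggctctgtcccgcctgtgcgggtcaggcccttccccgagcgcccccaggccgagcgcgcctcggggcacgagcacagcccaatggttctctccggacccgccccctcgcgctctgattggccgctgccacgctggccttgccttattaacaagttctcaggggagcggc

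The Twist1 run held 1 CAGAC close to the start and none of the other letters. Of all 32851 promoter windows of that length, 42.2% held CAGAC. The Prrx1 run held 1 TAATTA, which 4.84% of windows hold, and its window held 1 further CAGAC in the exonic bases that are not shown. The Twist2 run held 1 GCCNNNGGC, found in 13.7% of windows, and the window of Prrx2 held 2 matches to it. The Tfap2b run had 1 CAGAC, on the other strand, and 1 E-box, and the Msx1 run had 1 E-box, which 66.2% of windows hold. No motif was held by the windows of all 4 genes that fell with TGFβ in ascending fibroblasts. All 250 bases of the Twist2 window lie within an exon of Gm29100, a noncoding RNA on the opposite strand.

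Across the members, levels spanned several orders of magnitude. Per kilobase of merged exons, Prrx2 (23.1 ± 1.49, SD, n = 3), Twist1 (20.1 ± 1.32) and Prrx1 (17.0 ± 0.719) were the highest in ascending control fibroblasts, in normalized CPM per kilobase. Twist2 followed at 4.42 ± 0.599 and Msx1 at 1.45 ± 0.158 normalized CPM per kilobase. Sox10, Tfap2a, Msx2 and Tfap2b lay between 0.729 and 0.138 normalized CPM per kilobase, and Pax3 had no count. The mesenchymal factors were therefore the abundant members, and the early crest factors the scarce ones. Neighbours in this order could not all be separated: the 3 Prrx2 values and the 3 Twist1 values overlapped. When the longest transcript was used as the length, Prrx1 (28.8 normalized CPM per kilobase) came above Twist1 (20.1). The plot of the members by library shows these levels on the scale per library.

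**Figure D1:**
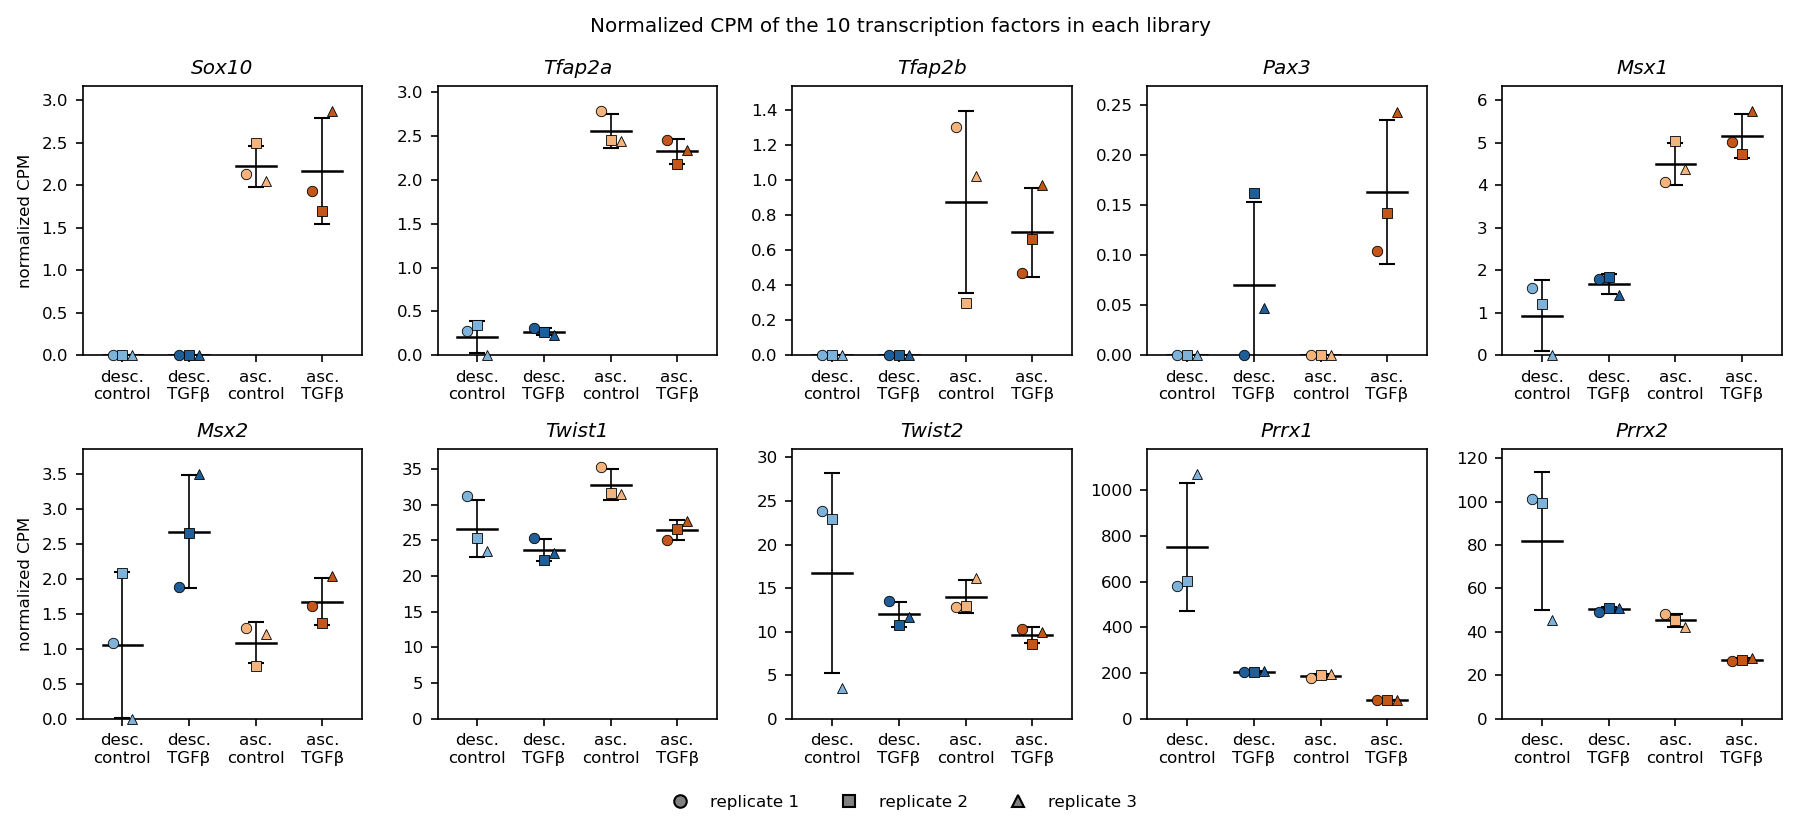
Normalized CPM (y axis, linear, from 0, a separate scale in each panel) of the 10 members in the 12 libraries, grouped on the x axis by site (desc., descending; asc., ascending) and treatment; points are libraries, with the symbol giving the replicate, bars the mean and whiskers the SD of 3 libraries. Sox10 and Tfap2b have no count in the 6 descending libraries, Prrx1 is lowest in the ascending TGFβ libraries (81.5 to 81.8 normalized CPM), and descending control replicate 3 lies away from its group for Msx1, Msx2, Twist2, Prrx1 and Prrx2.

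The first question was which members differed between the sites of origin. In control cultures, 8 of the 10 members had enough counts to be tested, and 2 passed the test: Sox10 was higher and Prrx1 lower in ascending fibroblasts. Over all 14090 genes tested, 2.65% passed, 1.19% as higher and 1.47% as lower. Without descending control replicate 3, 9 members were tested and 7 passed, 4 as higher and 3 as lower in ascending fibroblasts, against 31.6% of genes, 16.4% as higher and 15.2% as lower. In TGFβ-treated cultures 8 members were tested and 7 passed, 3 as higher and 4 as lower, against 36.3% of genes, 18.1% as higher and 18.2% as lower. The median log2 difference of the 8 tested members was -0.074 there and that of all genes 0.00, with members on both sides of it. Those higher in ascending fibroblasts were Sox10, Tfap2a and Msx1, and those lower were Msx2, Twist2, Prrx1 and Prrx2. Sox10, Tfap2a and, where it was tested, Tfap2b had enough counts for the filter in ascending libraries only. Their place in these counts rests on the group where they are high.

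Sox10 (ENSMUSG00000033006.10, chr15:79154908-79165240, minus strand, GRCm38), the SRY-box factor of crest, glia and melanocytes, had 0 counts in all 6 descending libraries. In ascending control libraries it had 49, 50 and 42 counts, or 2.13, 2.50 and 2.04 normalized CPM. In ascending TGFβ libraries it had 37, 36 and 59 counts, or 1.93, 1.70 and 2.87 normalized CPM. Every ascending library was above every descending one. Against the floor of 3 counts per library, the mean level was at least 14.7-fold higher in ascending fibroblasts in control and at least 14.2-fold higher with TGFβ. These bounds have no test of their own. For the log2 difference between the sites, edgeR gave an adjusted p of 0.0312 in control and 1.76e-09 with TGFβ. In control the adjusted p was 2.21e-06 without descending control replicate 3, and the call was lost without any 1 of the other 5 libraries, at an adjusted p between 0.0829 and 0.265. Within ascending fibroblasts, the 2 treatments overlapped (log2 fold change with TGFβ -0.039, SE 0.24, adjusted p = 0.905).

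Tfap2a and Tfap2b encode AP-2 proteins, which act early in crest specification, and Tfap2b is also known for its part in closure of the ductus arteriosus. Tfap2a (ENSMUSG00000021359.16, chr13:40715302-40738376, minus strand) had 7, 8 and 0 counts in descending control and 6, 5 and 5 in descending TGFβ libraries. In ascending libraries it had 64, 49 and 50 counts without and 47, 46 and 48 counts with TGFβ. The ascending libraries were again all above the descending ones. The mean was 2.55 ± 0.196 normalized CPM in ascending control and 0.206 ± 0.183 in descending control, a log2 difference of 3.53 (SE 0.92) that missed the threshold (adjusted p = 0.156). It passed without descending control replicate 3, at 3.04 (adjusted p = 1.07e-05), and by DESeq2 with all 6 libraries (3.54, adjusted p = 4.79e-05). With TGFβ the difference was 3.07 (SE 0.36, adjusted p = 3.67e-08). Exons of 3 antisense RNAs cover 1.49% to 7.75% of its exon bases, and each of them had at most 3 counts in a library.

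Tfap2b (ENSMUSG00000025927.13, chr1:19208914-19238576, plus strand) had 0 counts in all descending libraries, and in ascending ones 30, 6 and 21 counts without and 9, 14 and 20 counts with TGFβ. It was thus at hand in every ascending library and in no descending one, with a wide spread. It was too low for the filter in both comparisons of the sites. Against the floor, its mean was at least 5.79-fold higher in ascending control and at least 4.60-fold higher in ascending TGFβ fibroblasts. Without descending control replicate 3 it passed the filter, through its ascending counts alone, and the test in control (adjusted p = 0.00103). With no filter it passed with TGFβ (adjusted p = 6.44e-08) and not in control (adjusted p = 0.150). All descending counts were 0, so these p-values rest on the ascending counts and are no further support for the difference. Of the AP-2 pair, Tfap2a held 80.1% ± 9.82 per kilobase in ascending control libraries and 81.2% ± 5.74 in those given TGFβ.

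Pax3 (ENSMUSG00000004872.15, chr1:78101267-78197134, minus strand), a paired-box factor of the neural plate border and of somites, was at or under the floor in all but 1 library. It had 0 counts in every control library of either site. With TGFβ it had 0, 3 and 1 counts in descending and 2, 3 and 5 in ascending libraries. The filter removed it from every comparison. With no filter on low counts it passed the test for TGFβ in ascending fibroblasts (adjusted p = 0.0262) and not in descending ones (adjusted p = 0.476), on at most 5 counts per library.

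Msx1 and Msx2 encode homeodomain repressors, known from crest, limb and outflow tract as targets of BMP signals. Msx1 (ENSMUSG00000048450.10, chr5:37820485-37824583, minus strand) was at 1.59, 1.21 and 0 normalized CPM in descending control and at 1.79, 1.84 and 1.42 in descending TGFβ libraries. In ascending libraries it was at 4.08, 5.04 and 4.38 normalized CPM without and at 5.01, 4.73 and 5.75 with TGFβ. No ascending value fell into the descending range. The log2 difference between the sites was 2.24 (SE 1.08, adjusted p = 0.469) in control, 1.68 (adjusted p = 6.23e-05) in control without descending control replicate 3, and 1.62 (SE 0.20, adjusted p = 9.19e-08) with TGFβ.

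Msx2 (ENSMUSG00000021469.9, chr13:53466884-53473074, minus strand) lay the other way with TGFβ. It was at 1.09, 2.08 and 0 normalized CPM in descending control and at 1.89, 2.66 and 3.50 in descending TGFβ libraries. In ascending libraries it was at 1.30, 0.749 and 1.22 normalized CPM without and at 1.62, 1.37 and 2.05 with TGFβ. The site groups overlapped under both treatments. With TGFβ the log2 difference was -0.68 (SE 0.25, adjusted p = 0.0373), which DESeq2 did not call (adjusted p = 0.0758) and which lay between 0.0107 and 0.279 in adjusted p when 1 library was left out. In control it was 0.035 (adjusted p = 0.990), and -0.51 (adjusted p = 0.334) without descending control replicate 3.

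The makeup of the pair followed from this. Per kilobase, Msx1 held 81.3% ± 5.71 of the Msx pair in ascending fibroblasts without TGFβ, 76.7% ± 1.83 in ascending fibroblasts with TGFβ and 40.8% ± 10.1 in descending fibroblasts with TGFβ (SD, n = 3). In descending control replicates 1 and 2 it held 60.8% (exact 95% binomial interval 48.3% to 72.2%) and 38.2% (27.2% to 50.1%), and replicate 3 had no count of either gene. The lowest ascending share, 74.8%, was above the highest descending one.

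Twist1 and Twist2 encode basic helix-loop-helix factors of mesenchyme. Twist1 (ENSMUSG00000035799.6, chr12:33957671-33959829, plus strand) was at 31.1, 25.3 and 23.4 normalized CPM in descending control and at 35.3, 31.6 and 31.5 in ascending control libraries. With TGFβ it was at 25.4, 22.3 and 23.2 normalized CPM in descending and at 25.1, 26.5 and 27.8 in ascending libraries. The sites lay side by side, without overlap in control and with overlap under TGFβ. The log2 difference between the sites did not pass the test in control (0.30, SE 0.15, adjusted p = 0.480; 0.23, adjusted p = 0.0650, without descending control replicate 3) or with TGFβ (0.17, SE 0.074, adjusted p = 0.0813).

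Twist2 (ENSMUSG00000007805.4, chr1:91801461-91848028, plus strand) was at 23.8, 22.9 and 3.52 normalized CPM in descending control and at 12.9, 13.0 and 16.2 in ascending control libraries. With TGFβ it was at 13.5, 10.7 and 11.7 in descending and at 10.3, 8.61 and 9.98 in ascending libraries, in normalized CPM. Apart from descending control replicate 3, every descending library was above every ascending library of the same treatment. The log2 difference was -0.25 (SE 0.65, adjusted p = 0.854) in control, -0.73 (adjusted p = 8.56e-05) without that library, and -0.31 (SE 0.11, adjusted p = 0.0304) with TGFβ. The last value was not called by DESeq2 (adjusted p = 0.0631) or when any 1 of 3 of the 6 libraries was left out (adjusted p up to 0.181). Exons of the antisense RNA Gm29100 cover 46.5% of the exon bases of Twist2. Whether the counting used strand is not stated, so reads of the 2 genes may not have been told apart; Gm29100 itself had 0 to 31 counts per library, against 51 to 613 for Twist2.

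Prrx1 and Prrx2 encode paired-related homeodomain factors of limb, craniofacial and vascular mesenchyme, and Prrx1 is also known as a factor of stromal fibroblasts. With TGFβ both were lower in ascending than in descending fibroblasts, and in control Prrx1 was, while Prrx2 passed only without descending control replicate 3. Prrx1 (ENSMUSG00000026586.16, chr1:163245119-163313710, minus strand) was at 580, 601 and 1072 normalized CPM in descending control and at 179, 191 and 194 in ascending control libraries. With TGFβ it was at 206, 205 and 207 normalized CPM in descending and at 81.8, 81.5 and 81.6 in ascending libraries. Descending TGFβ and ascending control libraries were thus near one another, with no overlap between any of the 4 groups. In CPM without TMM these neighbours did overlap, at 192 to 197 in descending TGFβ and 191 to 207 in ascending control libraries. The log2 difference between the sites was -1.99 (SE 0.27, adjusted p = 0.0227) in control and -1.33 (SE 0.041, adjusted p = 5.66e-21) with TGFβ. In control it was -1.64 (adjusted p = 4.36e-12) without descending control replicate 3 and lost the call without any 1 of the other 5 libraries (adjusted p 0.0542 to 0.176).

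Prrx2 (ENSMUSG00000039476.13, chr2:30834972-30881251, plus strand) was at 101, 99.3 and 45.4 normalized CPM in descending control and at 48.3, 45.3 and 42.4 in ascending control libraries. With TGFβ it was at 49.1, 50.8 and 51.1 normalized CPM in descending and at 26.7, 27.0 and 27.9 in ascending libraries. Descending control replicate 3 lay within the ascending control range for Prrx2, while it was the highest library of all for Prrx1. The log2 difference was -0.85 (SE 0.31, adjusted p = 0.329) in control, -1.13 (adjusted p = 5.24e-09) without that library, and -0.88 (SE 0.058, adjusted p = 3.33e-13) with TGFβ.

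**Figure D2:**
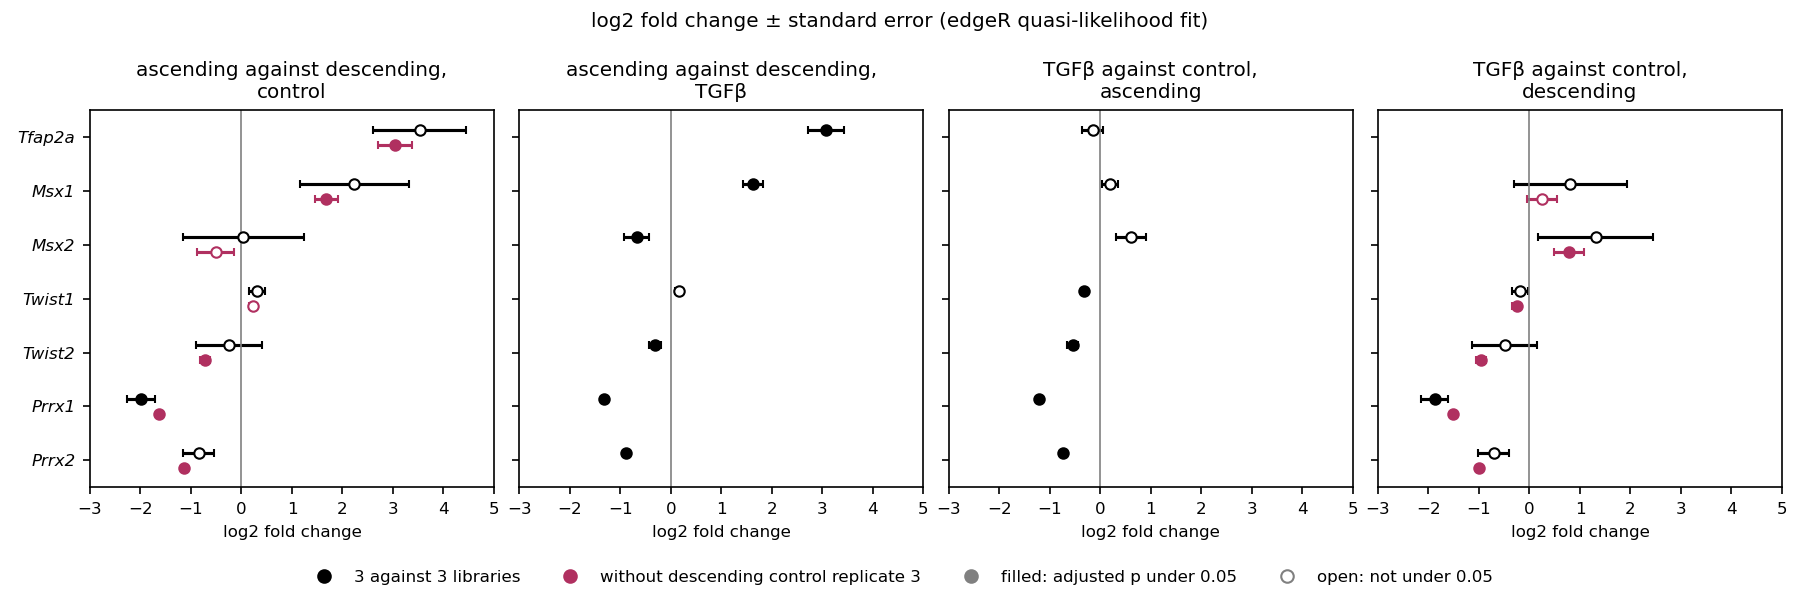
log2 fold change (x axis) with its standard error as whiskers, for 7 members (y axis) in 4 comparisons; black points use 3 against 3 libraries, red points leave out descending control replicate 3, and filled points have an adjusted p under 0.05. Sox10, Tfap2b and Pax3 are not drawn, since a group is at 0 counts. The differences between the sites for Tfap2a and Msx1 lie above 0 and those for Prrx1 and Prrx2 below 0, and under TGFβ Prrx1 falls in both kinds of fibroblast.

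The next question was which members responded to TGFβ. In ascending fibroblasts 9 members were tested, and 4 passed: Twist1, Twist2, Prrx1 and Prrx2, all lower with TGFβ. Over all genes 55.8% passed, 28.2% as higher and 27.6% as lower, so a count of 4 of 9 is close to the background. The median log2 change of the 9 members was -0.32, beside 0.00 over all genes. In descending fibroblasts 6 members were tested, and Prrx1 passed as lower, against 8.07% of genes, 3.59% as higher and 4.48% as lower. Without descending control replicate 3, 5 of 6 passed, Msx2 as higher and Twist1, Twist2, Prrx1 and Prrx2 as lower, against 52.9% of genes, 26.6% as higher and 26.3% as lower. The comparisons of treatment use the same control libraries as the comparisons of the sites.

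Prrx1 fell by 1.21 on the log2 scale (SE 0.040, adjusted p = 1.36e-13) in ascending fibroblasts, from 188 ± 7.96 to 81.6 ± 0.144 normalized CPM (SD, n = 3). In descending fibroblasts it fell by 1.88 (SE 0.27, adjusted p = 0.0134), from 751 ± 278 to 206 ± 1.30 normalized CPM. Without descending control replicate 3 the fall was 1.52 (adjusted p = 1.26e-21), from a mean of 590 normalized CPM. The 3 TGFβ libraries of each site lay within a narrow band, and the control libraries were all above them. The call in descending fibroblasts was lost when any 1 of the descending TGFβ libraries was left out (adjusted p up to 0.0992).

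Prrx2 fell by 0.74 on the log2 scale (SE 0.058, adjusted p = 1.08e-08) in ascending fibroblasts, from 45.3 ± 2.93 to 27.2 ± 0.579 normalized CPM. In descending fibroblasts its change was -0.71 (SE 0.31, adjusted p = 0.239) with all libraries and -0.99 (adjusted p = 4.20e-15) without descending control replicate 3. Replicates 1 and 2 of the descending control, at 101 and 99.3 normalized CPM, lay above the descending TGFβ libraries (50.3 ± 1.09), and replicate 3, at 45.4, lay below them. Both Prrx genes were thus lower with TGFβ in the ascending libraries.

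Twist2 fell by 0.55 (SE 0.11, adjusted p = 0.000607) and Twist1 by 0.32 (SE 0.064, adjusted p = 0.000441) on the log2 scale in ascending fibroblasts. The ascending groups of each gene did not overlap. With all 12 libraries in one fit these calls were lost (adjusted p = 0.599 for Twist2 and 0.117 for Twist1), as was that of Prrx2 (adjusted p = 0.0627). In descending fibroblasts the change of Twist2 was -0.49 (SE 0.65, adjusted p = 0.693) with all libraries and -0.96 (adjusted p = 2.67e-09) without descending control replicate 3. For Twist1 these values were -0.18 (SE 0.16, adjusted p = 0.541) and -0.26 (adjusted p = 0.0182).

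Neither Msx gene passed as lower with TGFβ. In ascending fibroblasts the log2 change of Msx2 was 0.61 (SE 0.30, adjusted p = 0.0973), with no overlap between the groups, and that of Msx1 was 0.19 (SE 0.16, adjusted p = 0.327). In descending fibroblasts Msx2 changed by 1.31 (SE 1.14, adjusted p = 0.537) with all libraries and by 0.78 (adjusted p = 0.0289) without descending control replicate 3, and Msx1 by 0.81 (SE 1.12, adjusted p = 0.707) and 0.25 (adjusted p = 0.513). Tfap2a and Tfap2b did not pass in ascending fibroblasts, at -0.15 (SE 0.21, adjusted p = 0.576) and -0.33 (SE 0.45, adjusted p = 0.556) on the log2 scale. Thus Sox10, Tfap2a, Tfap2b, Msx1 and Msx2 did not pass for TGFβ in ascending fibroblasts.

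The interaction asked whether the change with TGFβ differed between the sites. No member passed it with all 12 libraries by edgeR's quasi-likelihood test, with 1 at an unadjusted p under 0.05 (Prrx1) and none called by DESeq2, and 0.806% of genes passed. For Prrx1 the log2 difference of the changes was 0.66 (SE 0.27, adjusted p = 0.446) and for Prrx2 -0.030 (SE 0.33, adjusted p = 0.970). Without descending control replicate 3 both passed, at 0.31 (SE 0.06, adjusted p = 0.000347) and 0.26 (SE 0.08, adjusted p = 0.0369), against 13.5% of genes. In that fit both fell more in descending than in ascending fibroblasts. Sox10 and Tfap2b have no descending counts and give no such difference.

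The share of each gene within its pair can be read within a library. Per kilobase, Prrx1 held 50.4% (exact 95% binomial interval 49.3% to 51.4%), 51.7% (50.6% to 52.8%) and 80.7% (79.5% to 81.9%) of the Prrx pair in the 3 descending control libraries. Its share was 42.0% ± 0.496 with TGFβ in descending, 42.4% ± 2.58 without TGFβ in ascending and 34.7% ± 0.500 with TGFβ in ascending fibroblasts (SD, n = 3). The ascending TGFβ libraries were below all others, and descending TGFβ and ascending control libraries overlapped. Twist1 held 82.0% ± 2.60 of the Twist pair without and 84.2% ± 1.61 with TGFβ in ascending fibroblasts. It held 79.4% ± 0.799 in descending TGFβ libraries, and 71.8% (69.6% to 73.9%), 68.3% (65.6% to 70.8%) and 92.9% (90.6% to 94.7%) in descending control libraries. These intervals hold for counting error alone, because reads copied by PCR were not tagged as single molecules. Descending control replicate 3 was the extreme library for both pairs.

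**Figure D3:**
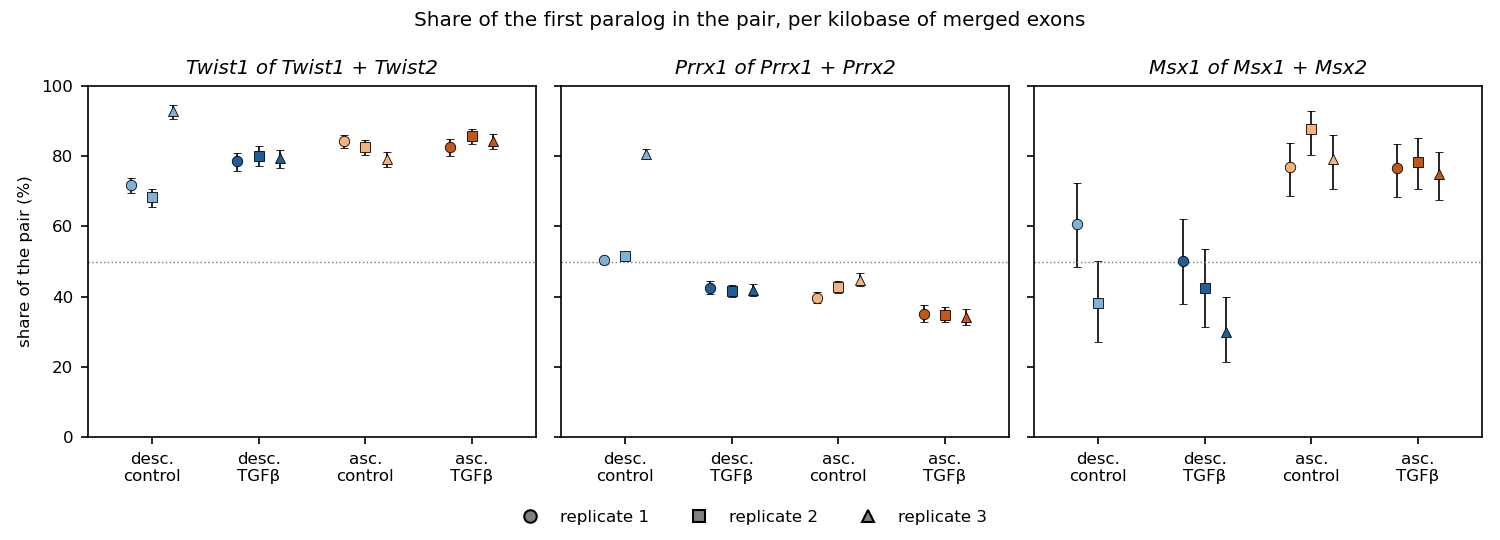
Share of the first gene in the Twist, Prrx and Msx pairs, per kilobase of merged exons (y axis, percent, 0 to 100), in each library by group (x axis); whiskers are exact 95% binomial intervals for counting error, and the dotted line marks 50%. Msx1 is the larger part in all ascending libraries (74.8% to 87.7%), Prrx1 is the smaller part in ascending TGFβ libraries (34.2% to 35.2%), and descending control replicate 3 has no point for Msx because it had no count.

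SOX10 is also the defining factor of Schwann cells and other glia, so the marker lists of the cell types that crest forms were read beside it. The 13 Schwann and glia markers summed to 50.4 to 60.8 normalized CPM without and 30.9 to 36.5 with TGFβ in ascending libraries. They summed to 24.5 to 39.3 in descending control and 15.8 to 18.3 in descending TGFβ libraries. In TGFβ-treated cultures 8 of the list were tested, and 5 passed as higher in ascending fibroblasts, among them Ngfr, Sox2, Erbb3 and L1cam, and none as lower, where 18.1% of all genes passed as higher. In control 2 of 9 passed as higher, Ngfr and Sox2, against 1.19% of genes, and 8 of 11 without descending control replicate 3, against 16.4%, with none lower. These are higher in the same libraries as Sox10, and their part in its difference was not tested.

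Cdh19, a cadherin of Schwann cell precursors, was at 4.30, 4.39 and 3.94 normalized CPM in ascending and at 4.16, 4.73 and 10.1 in descending control libraries, where Sox10 was at 0. This marker was thus present in libraries without a Sox10 count. Ngfr, a neurotrophin receptor of crest and glia, was at 10.2, 13.5 and 13.0 normalized CPM in ascending control and at most at 0.173 in descending control libraries. Foxd3, a crest factor, and Gfra3, a receptor of glial and neuronal cells, had 0 counts in all 6 descending libraries, as Sox10 did, and up to 36 and 15 counts in ascending ones.

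**Figure D4:**
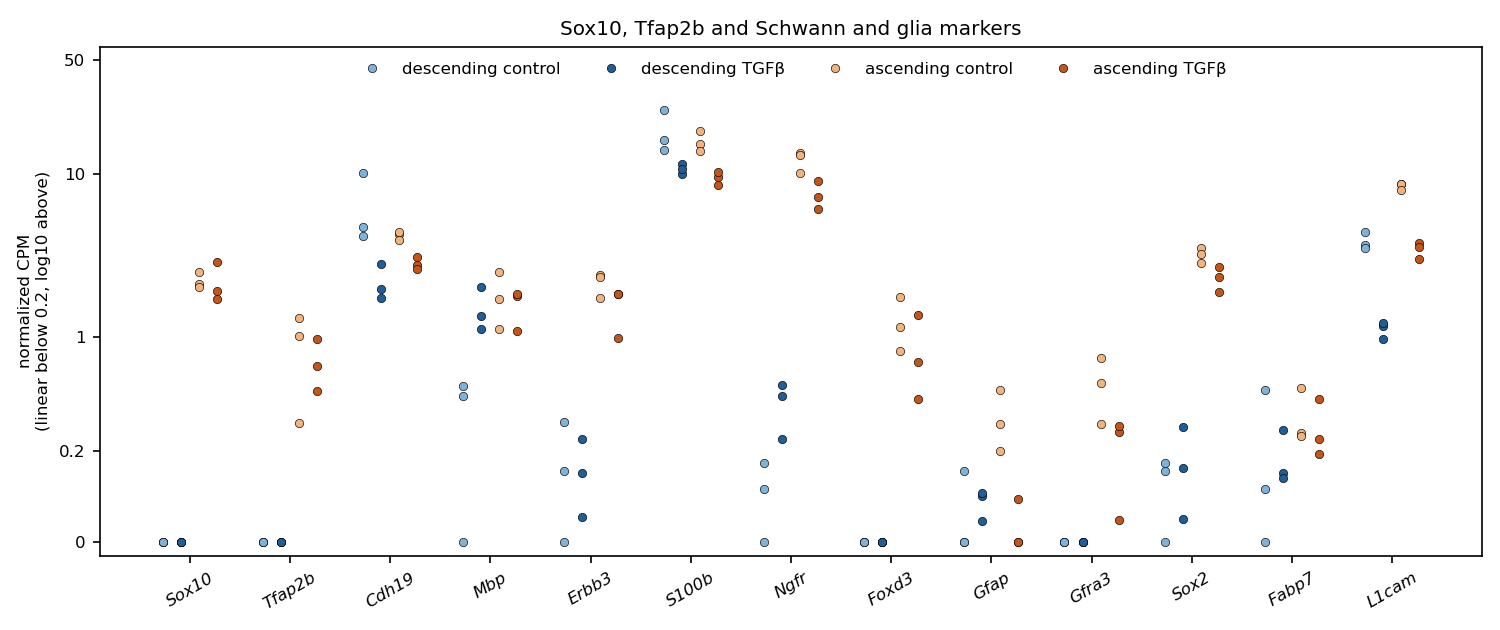
Normalized CPM (y axis, linear below 0.2 and logarithmic above) of Sox10, Tfap2b and 11 of the Schwann and glia markers (x axis), 1 point per library, coloured by group. Sox10, Tfap2b, Foxd3 and Gfra3 sit at 0 in the 6 descending libraries, Ngfr lies between 6.10 and 13.5 normalized CPM in ascending libraries and at or below 0.510 in descending ones, and Cdh19 and S100b are at like levels in both sites.

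Markers of the other derivatives differed in level. Tyr, the key enzyme of melanin synthesis, had 0 counts in all libraries, and Dct had at most 2. The 9 melanocyte markers summed to between 2.84 and 10.0 normalized CPM, and neither of the 2 that were tested, Mitf and Pmel, passed between the sites in either treatment. Mitf, a regulator of melanocytes, was at a mean of 2.53 to 6.82 normalized CPM in the 4 groups. Elavl3, an RNA-binding protein of neurons, had 0 counts in all libraries. Of the 9 neuron markers, 2 of 2 tested passed as higher in ascending fibroblasts with TGFβ, against 18.1% of all genes. In control 1 of 3 did, against 1.19%, and 2 of 3 without descending control replicate 3, against 16.4%. Their sum lay between 52.7 and 105 normalized CPM in descending control and 179 and 188 in ascending control libraries, and with TGFβ between 168 and 175 in descending and 248 and 253 in ascending ones. Most of it was Tubb3, a tubulin, at a mean of 161 normalized CPM in ascending and 78.6 in descending control, and Stmn2 was at 22.2 and 5.03.

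Markers of further cell types were read in the same way. Of the 5 mesothelial markers, the defining ones (Upk3b, Lrrn4 and Msln) had the higher mean in ascending control and Krt19 the lower. In control 1 of 3 tested passed as higher, against 1.19% of genes. The counts without descending control replicate 3 were 3 of 4 as higher and 1 as lower, against 16.4% and 15.2%. Upk3b was higher in ascending control (29.0 to 37.0 normalized CPM) than in descending control libraries (0 to 1.60; adjusted p = 0.0461). Lrrn4 had 11 to 35 counts in ascending and 0 in descending control libraries (adjusted p = 0.123, and 0.000619 without descending control replicate 3), and Msln, which passed only without that library (adjusted p = 0.00657), was at a mean of 1.71 and 0.0808 normalized CPM. Krt19 was at a mean of 3.71 normalized CPM in ascending and 10.01 in descending control (adjusted p = 0.0651, called as lower without descending control replicate 3), and with TGFβ the 2 markers tested went apart, Krt19 lower (log2 difference -1.78, adjusted p = 4.95e-12) and Upk3b higher in ascending fibroblasts (4.49, adjusted p = 4.71e-17, at a mean of 18.3 against 0.817 normalized CPM), where 18.2% of all genes passed as lower and 18.1% as higher. Wt1 had at most 1 count in any library. The 6 macrophage markers summed to 54.4 and 57.7 normalized CPM in ascending control replicates 1 and 3, to 357 in ascending control replicate 2, and to 25.5 to 47.2 in descending control libraries. With TGFβ they summed to 29.6 to 42.3 in ascending and 14.0 to 27.0 in descending libraries. As higher in ascending fibroblasts 3 of 6 passed with TGFβ, against 18.1% of genes, and in control 4 of 6 only without descending control replicate 3, against 16.4%. Of the 7 smooth muscle markers, 5 passed as lower and none as higher in ascending fibroblasts with TGFβ, against 18.2% of genes as lower. Myh11, the smooth muscle myosin, was at a mean of 15.6 against 74.7 normalized CPM there (adjusted p = 6.62e-19). In control Acta2 passed as lower, where 1.47% of genes did, and without descending control replicate 3 there were 5 lower and 2 higher of 7, against 15.2% and 16.4%. The 6 endothelial markers summed to between 8.25 and 28.1 normalized CPM. In control this was mostly Tek, at a mean of 24.3 in ascending and 24.2 in descending libraries. The defining Pecam1, Cdh5 and Vwf had at most 6, 6 and 21 counts in a library and were not tested with TGFβ. Of the 3 tested there, Tek and Kdr passed as lower in ascending fibroblasts, against 18.2% of genes. Erg was higher without passing (log2 difference 0.34, adjusted p = 0.229). Of the 10 fibroblast markers, 1 passed as higher and 1 as lower in ascending control, against 1.19% and 1.47% of genes, and 3 and 5 without descending control replicate 3, against 16.4% and 15.2%. Pdgfra was the lower one, at a mean of 184 against 371 normalized CPM (adjusted p = 0.00784), and Col3a1 the higher one, at 4871 against 1733 (adjusted p = 0.0192). With TGFβ 4 passed as higher, Col3a1 and Dcn among them, and 6 as lower, Pdgfra and Thy1 among them, against 18.1% and 18.2% of genes. The part of these cells in the members' differences was not tested.

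Of 45 other regulators of crest and arch mesenchyme, 27 were tested between the sites under TGFβ; 15 passed as higher and 7 as lower in ascending fibroblasts, against 18.1% and 18.2% of all genes. Hand2, a factor of outflow tract and arch mesenchyme, was higher by 5.18 on the log2 scale (adjusted p = 1.28e-23). Meis2, Lmo4 and Sox9 also passed as higher, Lmo4 by 0.53 and Sox9 by 0.51 on the log2 scale. In control 2 of 31 passed as higher, Hand2 and Six2, and none as lower, against 1.19% and 1.47% of genes. These counts were 13 and 11 of 32 without descending control replicate 3, against 16.4% and 15.2%. The list median under TGFβ was 0.24, beside 0.00 over all genes. Pax7 and Tfap2d had 0 counts in all libraries.

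With TGFβ in ascending fibroblasts, 7 of 29 of these regulators passed as higher and 9 as lower. Over all genes 28.2% passed as higher and 27.6% as lower, so these counts are close to the background. Foxc2, a forkhead factor of arch mesenchyme, rose by 1.38 and Rarb, a retinoic acid receptor, by 2.94 on the log2 scale. Snai2, a zinc finger factor of the epithelial-mesenchymal transition that acts beside TWIST1 in crest, fell by 1.11 and Zeb2 by 0.45. In descending fibroblasts 2 of 27 passed as higher, Foxc2 and Ets1, and Snai2 as lower, against 3.59% and 4.48% of genes. Without descending control replicate 3, 6 of 28 passed as higher and 10 as lower, against 26.6% and 26.3%. The list moved in both directions, with a median of 0.033 in ascending fibroblasts beside 0.00 over all genes.

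TWIST proteins bind DNA as dimers with E proteins, and ID proteins compete for those partners. Of the 3 E protein and 4 ID genes, 6 of 7 passed as lower with TGFβ in ascending fibroblasts and none as higher, where 27.6% of all genes passed as lower. Id2 fell by 1.39, Id1 by 1.09, Id3 by 0.36 and Tcf3 by 0.36 on the log2 scale there. In descending fibroblasts Id4 passed as lower, by 2.05 (adjusted p = 0.00724), against 4.48% of genes, and 6 of 7 passed as lower without descending control replicate 3, against 26.3%. Between the sites, Id4 was lower in ascending fibroblasts, with a log2 difference of -3.51 in control (adjusted p = 0.00397), at 4.32 against 49.4 normalized CPM, and of -2.77 with TGFβ (adjusted p = 9.01e-15).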

How the data were processed

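RNA of 12 cultures was sequenced, and the authors deposited raw counts per gene symbol, 1 column per library. Per the labels and the study's methods, reads were checked with FastQC, aligned to mm10 with STAR and counted with featureCounts; versions, the strand setting and the handling of reads that match several genes are not given in the sources used here. Samples were grouped by the labels. The members and lists were chosen with earlier results of these data known. Counts were tested in R 4.3.3 with edgeR 4.0.16: TMM normalization, filterByExpr (minimum count 10, minimum total 15), and the two-sided quasi-likelihood F-test on the libraries of the groups compared (all 12 for the interaction), with Benjamini-Hochberg adjustment over all genes tested and a threshold of 0.05. Standard errors (SE) of log2 fold changes were taken as |log2 fold change|/√F. Alternatives were the Wald test of DESeq2 1.42.0, its size factors in edgeR, no filter, at least 10 counts in every library, the replicate number as a block, all libraries in one fit, each library left out, CPM without TMM and the longest transcript as length. DESeq2 without descending control replicate 3 was added after the data were seen. Fits were tested on simulated data, where the share of false calls by edgeR went above the threshold for TGFβ in descending fibroblasts and for the interaction. All 10 members are named; of the other lists, at most the 4 genes with the smallest adjusted p in a comparison and any at 0 counts in all libraries are named, and further cell type markers were named after their values were seen. Positions and exon lengths come from GENCODE vM21 (GRCm38, the assembly of mm10), in which 53753 of 54352 symbols (98.9%) were found, and promoters from RefSeq (GRCm38.p6). Figures were drawn with matplotlib 3.10.9. Some single markers of the lists are not reported here.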

Additional observations from a re-analysis of the deposited data

Results flagged for a closer look

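The change of Prrx1 and Prrx2 with TGFβ differed between ascending and descending fibroblasts when descending control replicate 3 was left out, by the interaction test itself. The difference of the log2 changes was 0.31 (SE 0.06, edgeR adjusted p = 0.000347) for Prrx1 and 0.26 (SE 0.08, adjusted p = 0.0369) for Prrx2, with the fall smaller in ascending fibroblasts in both cases. With all 12 libraries neither passed, at 0.66 (adjusted p = 0.446) and -0.030 (adjusted p = 0.970), and DESeq2 without that library called Prrx1 (0.29, adjusted p = 3.04e-05) and not Prrx2 (0.24, adjusted p = 0.0751). In edgeR's fit without it, 2 of 9 tested members passed, against 13.5% of all genes. That fit has only replicates 1 and 2 for the descending control. On simulated data, edgeR's share of false calls for the interaction went above the threshold.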

How the results depend on the processing

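The settings that changed most were those that touch descending control replicate 3. Among all genes, the number called between the sites in control was 374, and 1151 with DESeq2, 1545 with all 12 libraries in one fit, 3804 with DESeq2 without that library, and 33 to 4631 with 1 library left out, the highest without it. For TGFβ in descending fibroblasts it was 1115, and 2531, 3570, 6582 and 213 to 7576 under these settings. For the interaction it was 118, and 497 with DESeq2, 56 with no filter, 1849 with DESeq2 without that library and 25 to 2022 with 1 library left out. All 12 libraries in one fit lowered the calls between the sites under TGFβ from 4963 to 1106 and those for TGFβ in ascending fibroblasts from 7767 to 2338; Msx1, Msx2 and Twist2 then lost the first call and Twist1, Twist2 and Prrx2 the second. That fit also uses descending control replicate 3.

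Whether replicate numbers pair the samples was not settled: of 18 pairs 1 correlated over 0.1, and 8 were best with their own number. With 3 libraries per group, descending control replicate 3 among them, this check cannot exclude pairing. With the number as a replicate block, 0 genes were called between the sites in control (Sox10 adjusted p = 0.452, Prrx1 0.120), 95 for TGFβ in descending fibroblasts (Prrx1 adjusted p = 0.0799) and 50 for the interaction, and Twist2 turned to 0.065 between the sites in control.

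Other log2 values that turned sign were not called in either setting, apart from Prrx2 in the interaction, at -0.21 to 0.26 with 1 library left out (called without descending control replicate 3) and 0.24 with DESeq2 without that library. The rest were, with 1 library left out, Twist2 (-0.73 to 0.089, the lower end called and without descending control replicate 3) and Msx2 between the sites in control (-0.51 to 0.95; -0.52 with DESeq2 without that library), Sox10 (-0.29 to 0.11) and Tfap2b (-0.73 to 0.079) with TGFβ in ascending fibroblasts, and in the interaction Tfap2a (-0.88 to 0.041; 0.027) and Twist2 (-0.38 to 0.42; 0.40). Of 500 alternatives to the 38 tested values of the members, 428 kept direction and side of the threshold. The cause of these changes was not tested. Pax3 had at most 5 counts in a library, so little can be read from its values, and the cause of its low counts was not tested.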
